A study of Mus musculus with 19 samples.

Results

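Constitutive gene-end regions are short stretches of open chromatin that lay at an end of a protein-coding gene and were called in every library of the study. Each library was reduced to as many of its best-scoring peak summits as the smallest library holds, here called the matched list. Summits at most 200 bp apart were chained, which gave 58477 regions. Of these, 13035 held a summit of all 19 libraries, and 6317 of the 13035 (48.5%) had their midpoint within 1 kb of a gene end in the mouse assembly GRCm38. The summit scores chose these 6317 regions. Their presence, their ranks and the spread of their ranks are therefore described below with no test, and only differences between the study's groups, which the choice did not use, were tested.

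ATAC-seq, in which a transposase cuts and tags open chromatin, was run on mouse forebrain of embryonic day 14 after magnetic separation of Prom1+ cells. The protein Prom1 (CD133) sits on the surface of neural progenitors, among other cells. There were 6 mutants on a retinoic acid diet, 4 mutants on no diet, 5 controls on the retinoic acid diet and 4 controls on no diet. Mutants carried a hith and a LacZ allele of Foxc1, a transcription factor gene needed for the meninges to form, and controls were Foxc1 WT. The labels name no Cre or tissue-restricted promoter. Mutant 1 has a title that calls it a mutant and a genotype label that calls it WT. It was grouped by its title, and counts that move by over 1.5 times without it are given below. Nothing in the labels ties libraries to separate animals. The p-values thus reflect the spread between these libraries, which may be partly technical.

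Open chromatin at gene starts marks promoters, where general transcription factors and RNA polymerase assemble on DNA kept free of nucleosomes. Many promoters of genes needed in all cells lie in CpG islands, stretches rich in the CG dinucleotide that are mostly unmethylated and accessible in most tissues. Known binding factors of such promoters are NF-Y, which binds CCAAT boxes, SP and KLF proteins at GC boxes, ETS proteins, NRF1, YY1 and the CREB family.

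The promoter windows of 6 strongly ranked regions show the letters that recur at these sites. Each window runs from 250 bases before to 50 bases after the gene start, 5′ to 3′ on the strand of the gene, in RefSeq's annotation of GRCm38.p6. For each of 6 binding motifs, the gene shown is the one with the best mean rank whose window holds the motif. Capitals mark that motif on either strand, and the other letters are in lower case. Stt3a encodes a catalytic subunit of the enzyme that transfers sugars to new proteins, and its window at chr9:36767573-36767872 (minus strand) is shown for CCAAT. Stip1 encodes a co-chaperone that links Hsp70 and Hsp90, and its window at chr19:7039977-7040276 (minus strand) is shown for GGGCGG, the GC box. Tcp1 encodes a subunit of the cytosolic chaperonin, and its window at chr17:12916079-12916378 (plus strand) is shown for CCGGAAG, the ETS motif. Wdr89 encodes a WD-repeat protein, and its window at chr12:75669488-75669787 (minus strand) is shown for CGCATGCG, the NRF1 motif. Ift57 encodes a carrier protein of cilia, and its window at chr16:49699044-49699343 (plus strand) is shown for TGACGTCA, the cAMP response element or CRE. Isca2 encodes a factor of mitochondrial iron-sulfur cluster assembly, and its window at chr12:84773020-84773319 (plus strand) is shown for AAGATGGCG, the YY1 motif.
Stt3a: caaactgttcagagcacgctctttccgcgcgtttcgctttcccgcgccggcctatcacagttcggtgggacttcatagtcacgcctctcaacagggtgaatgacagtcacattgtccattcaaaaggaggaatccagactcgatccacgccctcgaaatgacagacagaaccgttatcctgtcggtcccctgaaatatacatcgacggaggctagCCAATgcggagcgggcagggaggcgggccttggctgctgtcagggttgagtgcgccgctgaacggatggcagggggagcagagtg
Stip1: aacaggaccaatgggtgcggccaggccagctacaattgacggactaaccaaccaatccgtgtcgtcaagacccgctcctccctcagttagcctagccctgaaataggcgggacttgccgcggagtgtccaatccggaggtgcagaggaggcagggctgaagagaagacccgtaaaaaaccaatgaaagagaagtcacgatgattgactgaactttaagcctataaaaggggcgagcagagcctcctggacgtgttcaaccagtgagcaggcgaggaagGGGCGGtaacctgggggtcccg
Tcp1: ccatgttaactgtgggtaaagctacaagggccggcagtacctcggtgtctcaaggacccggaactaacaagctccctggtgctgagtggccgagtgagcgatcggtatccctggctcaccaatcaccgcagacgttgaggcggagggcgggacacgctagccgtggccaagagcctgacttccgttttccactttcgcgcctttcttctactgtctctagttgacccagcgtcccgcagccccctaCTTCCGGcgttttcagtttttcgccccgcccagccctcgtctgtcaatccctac
Wdr89: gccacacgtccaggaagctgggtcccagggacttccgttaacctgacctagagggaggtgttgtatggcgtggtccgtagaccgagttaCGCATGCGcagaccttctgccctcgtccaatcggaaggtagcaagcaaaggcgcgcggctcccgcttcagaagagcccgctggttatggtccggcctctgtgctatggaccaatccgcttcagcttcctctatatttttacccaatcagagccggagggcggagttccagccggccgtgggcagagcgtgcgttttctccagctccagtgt
Ift57: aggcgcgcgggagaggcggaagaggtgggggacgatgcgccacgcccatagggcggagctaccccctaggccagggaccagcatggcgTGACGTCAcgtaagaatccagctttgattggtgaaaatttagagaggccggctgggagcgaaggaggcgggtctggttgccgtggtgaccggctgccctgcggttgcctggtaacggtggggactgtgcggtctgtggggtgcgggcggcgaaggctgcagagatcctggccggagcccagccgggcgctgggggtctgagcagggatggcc
Isca2: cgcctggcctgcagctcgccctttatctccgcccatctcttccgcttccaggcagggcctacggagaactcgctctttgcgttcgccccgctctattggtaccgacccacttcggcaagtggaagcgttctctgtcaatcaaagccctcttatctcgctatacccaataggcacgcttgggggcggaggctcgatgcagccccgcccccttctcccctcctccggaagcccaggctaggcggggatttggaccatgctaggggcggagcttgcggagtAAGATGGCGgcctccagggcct
Several windows hold more than one kind of motif. The Isca2 window has 2 matches to CCAAT, the nearest with its centre 1 bp from the median summit, besides 4 GC boxes and 1 ETS match. The region there lies between the starts of Isca2 and Npc2, a lysosomal cholesterol carrier, which run head to head. All of its best summits lay between chr12:84773115 and chr12:84773117. The Stip1 window has 4 matches to CCAAT, the nearest 32 bp upstream of the median summit, and a TATAAA match 137.5 bp downstream of it. In the Wdr89 window, 1 of 3 CCAAT matches lies 9 bp from the median summit and the NRF1 match 98.5 bp upstream. In the Stt3a window the only CCAAT match lies 129 bp downstream of the summit. A match is a run of letters, and binding was not measured here.

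Libraries differed in number of summits and in likeness. Reads were not used here, so depth is unknown. The number of deposited summits varied, with the fewest in mutant 4 on the diet, then 48323 in mutant 6 on the diet, and up to 122591 in control 4. The ranks of the regions in 1 library correlated with their mean over the other libraries at a Spearman coefficient of 0.905 to 0.972 in 15 libraries, across 6317 regions that share libraries and base composition. The 4 others were mutant 4 (0.794), mutant 3 (0.798), mutant 6 on the diet (0.836) and mutant 4 on the diet (0.900). All 4 carry the mutant genotype. The regions had their weakest rank in mutant 4 in 21.3% of cases and in mutant 3 in 20.1%. Their summits lay a median of 27 bp from the region's median position in mutant 4, 22 bp in mutant 4 on the diet, 13 bp in mutant 3 and in mutant 6 on the diet, and 2 to 5 bp in the rest. Counts and named differences between groups that move by over 1.5 times without mutants 3 and 4 are also given without both.

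Gene-end regions ranked high in each library. A rank is given as a percentile, near 100 for the best summit of a library's matched list and near 0 for the last. The median region had a mean percentile of 80.7 over the 19 libraries, with quartiles of 66.4 and 91.3 and a range of 22.3 to 99.9. Regions in every library that lay 10 to 100 kb from a gene end had a median of 65.3 (n = 3310), those 1 to 10 kb away 71.2 (n = 1639) and those over 100 kb away 66.1 (n = 1769). The median of the gene-end regions was above that of the 10 to 100 kb regions in 19 of 19 libraries, by 6.74 points in mutant 3 on the diet to 26.4 points in mutant 6 on the diet. Of the 1000 best summits of a library, 71.2% to 84.0% lay in gene-end regions. In every library at once, 829 gene-end regions (13.1%) had a percentile of 90 or more, against 52 of the 3310 regions 10 to 100 kb away (1.57%).

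The median percentile differed little between groups. Its mean was 81.1 ± 2.44 over 6 mutants on the diet, 81.4 ± 2.85 over 4 mutants, 82.4 ± 0.816 over 5 controls on the diet and 83.0 ± 1.31 over 4 controls (± SD). The ranges of all groups overlapped. Mutant 6 on the diet (85.3) and mutant 1 (85.2) had the highest values, and mutant 3 on the diet (78.6) and mutant 4 (78.9) the lowest.

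**Figure D1:**
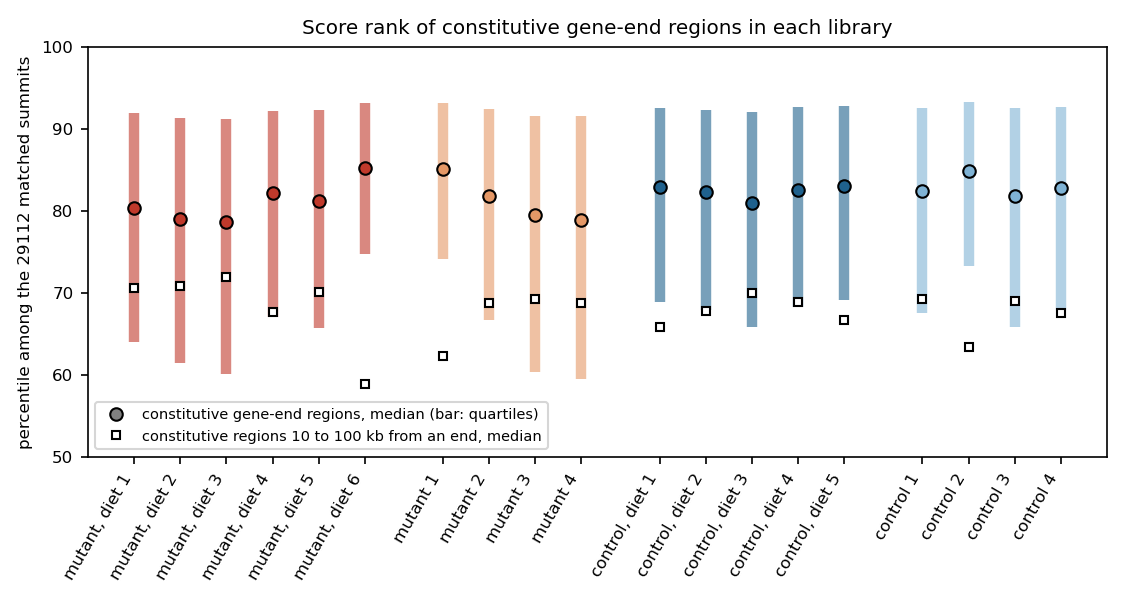
Percentile of the 6317 constitutive gene-end regions within the matched summit list of each library, with circles for the median and bars for the quartiles. Squares are the medians of the 3310 constitutive regions 10 to 100 kb from a gene end, and the circle lies above the square in 19 of 19 libraries.

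The top of the ranking held genes of RNA binding, protein folding and transport, signalling and transcription. Khsrp, which encodes an RNA-binding protein of splicing and messenger decay, had the highest mean percentile (99.9), and its lowest value in any library was 99.2, in control 2. After it came Stt3a, Stip1, Map3k3 (a MAP kinase kinase kinase), Sp1, Hmgb2 (a chromatin protein of dividing cells), Tomm40 (the pore of the mitochondrial outer membrane), Ap2a1 (a subunit of the clathrin adaptor), Srgap2 (a GTPase-activating protein of neuronal migration) and Hsd17b12 (an enzyme of fatty acid elongation). Their mean percentiles ran from 99.8 in Hsd17b12 to 99.9 in Stt3a. Sp1 encodes one of the factors that bind the GC box. Its region at chr15:102405880-102405992 had percentiles of 99.658 to 99.998 in mutants on the diet, 99.48 to 99.998 in mutants, 99.998 in each control on the diet and 98.765 to 99.998 in controls. All groups overlap, and control 2 was lowest.

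The regions sat on gene starts. A strand was known for 5195 of the 6317, and 5073 of these (97.7%) lay at the start of the gene and 122 (2.35%) at its 3′ end. The midpoint of the start regions lay at a median of 9 bp upstream of the annotated start, with quartiles at 65 bp upstream and 66 bp downstream, and 64.5% were within 100 bp. Almost all regions (99.8%) held exactly 1 summit of each library. They belonged to 6282 nearest genes, 35 of which had 2 regions. Genes that share a start area were common: of 5794 genes with a strand and a region within 1 kb of their start, 841 (14.5%) had a head-to-head partner within 1 kb, against 317 of 11698 genes with no such region (2.71%). A region between the starts of such a pair can count for both genes. The part of this counting in the difference was not tested. In all, 1069 regions (16.9%) lay within 1 kb of an end of 2 or more genes and cannot be assigned to 1 of them.

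**Figure D2:**
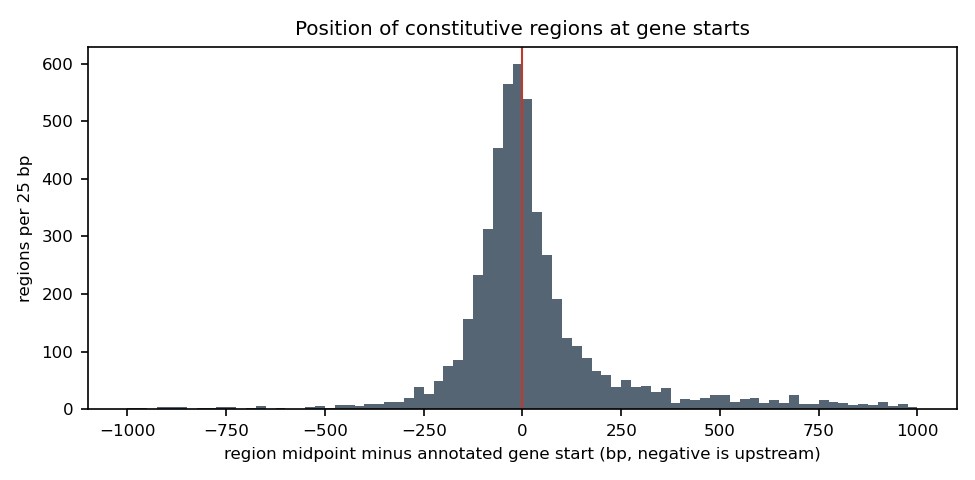
Number of constitutive regions per 25 bp by the distance of their midpoint from the annotated gene start in bp, for the 5073 regions at a start, with negative values upstream. The regions pile up at the start, with a median 9 bp upstream of it.

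Regions at 3′ ends were fewer and ranked lower, with a median percentile of 68.6 against 81.5 at starts. A listed gene start, in some cases the gene's own, lay within 1 kb of 23 of the 122. Fezf2, a transcription factor gene of forebrain projection neurons and their progenitors, had such a region at chr14:12338121-12338258, 802.5 bp from its 3′ end and 7675.5 bp from the nearest listed start, its own. Its mean percentile was 95.3, with 83.1 in the lowest library and 98.3 in the highest. Junb, an AP-1 transcription factor gene, had a 3′ region with a mean percentile of 78.3, and Wnt8b, a signal gene of the dorsal forebrain midline, one of 80.5.

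The limits of the rule cut through a continuum. The regions just inside 1 kb were those of Ccne2 (999.5 bp), Ppm1b (998 bp) and Nsmce4a (996.5 bp), with mean percentiles of 70.6, 99.6 and 40.4. Just outside lay regions of Synrg (1000.5 bp), Arhgap21 (1002 bp) and Mettl5 (1003.5 bp), with 83.7, 96.7 and 66.9. By rank, Il6 was the last region inside, with a weakest rank of 29103 in the matched list, and Celf3 (29058) and 1700017B05Rik (29049) came before it. Qsox2 was left out because its summit in 1 library ranked 29127, and Pigk (29204) and Ttc12 (29209) likewise. A further 936 regions near a gene end held 18 libraries. The missing library was mutant 4 on the diet in 258, mutant 4 in 247 and mutant 3 in 128, and in 400 of the 936 that library did have a summit there, too weak for the matched list.

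Summit positions were steady. The position of the best summit ranged over a median of 101 bp across the 19 libraries, with quartiles of 65 and 160 bp, against 129 bp in regions 10 to 100 kb from a gene end. For regions of like level, it was 91 bp (n = 1461) against 117 bp (n = 466) between percentiles of 80 and 90. Below a percentile of 50 the order turned, with 165.5 bp (n = 470) against 143 bp (n = 659). In 14 regions the summit fell on the same base in all libraries. Among these were Map3k3 at chr11:106084327, Rab30 (a Golgi GTPase) at chr7:92741557, Dck (a kinase that salvages deoxynucleosides) at chr5:88765081, Eno1 (a glycolytic enzyme) at chr4:150237082 and Maea (a ubiquitin ligase subunit) at chr5:33335491. The widest range was 844 bp, at Setd7, a lysine methyltransferase gene.

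Ranks were also steadier at gene ends than far from them, for regions of like level. The spread of a region was taken as the SD over 19 libraries of its normal score, which is the rank turned into a standard normal value. The median SD was 0.27 for gene-end regions and 0.33 for regions 10 to 100 kb away. Between percentiles of 80 and 90 it was 0.23 (n = 1461) against 0.27 (n = 466), and between 95 and 98 it was 0.23 (n = 596) against 0.29 (n = 55). Above 98 the order turned, with 0.27 (n = 351) against 0.25 (n = 19). Both sets had all 19 libraries by construction, which trims the spread of low regions, and these values have no test.

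The steadiest regions belonged to Rbm14, Pold2, Tesk1, Hat1, Fbxo38, Mydgf, Zfp810, Syn3, Thada and Tmem167b, with SDs of 0.09 to 0.11. Rbm14 encodes an RNA-binding coactivator of transcription. Its percentiles were 93.5 to 95.8 with a median of 95.2 in mutants on the diet, 95.1, 95.7, 94.9 and 93.9 in mutants, 96.7, 96.3, 94.9, 94.9 and 96.8 in controls on the diet, and 95.8, 95.4, 95.8 and 95.6 in controls. The groups overlap, and no library stands apart. Pold2, a subunit of the replicative DNA polymerase delta, ranged from 94.7 to 97.1, and Hat1, a histone acetyltransferase of newly made histone H4, from 92.9 to 96.3. A steady rank was not only found at the top: Mydgf, a secreted growth factor gene, ranged from 71.1 to 83.1.

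The least steady regions belonged to Ptprm, Usp15, Rhof, Fxr1, H4c4, Celf3, Pacs1, Ubac1, Bri3bp and Uap1, with SDs of 0.78 to 0.90. Ptprm encodes a receptor tyrosine phosphatase of cell adhesion. Its percentiles were 0.36 to 84.2 with a median of 35.7 in mutants on the diet, 82.3, 15.99, 54.9 and 40.0 in mutants, 33.8, 77.9, 12.5, 45.6 and 47.2 in controls on the diet, and 37.3, 78.7, 29.0 and 15.95 in controls. Every group spans most of the scale. The highest library of each group was control 2, mutant 1, control 2 on the diet and mutant 6 on the diet. The same libraries were highest in their groups at Usp15, Fxr1, Pacs1 and Bri3bp, so the spread there was shared between regions. Its cause was not tested. In Ubac1 and Celf3, 1 or 2 libraries made the spread. Ubac1, a ubiquitin ligase partner, had 87.4, 86.3, 50.4 and 1.23 in mutants, against 79.1 to 90.2 in controls, so mutants 3 and 4 were low. Celf3, a neuronal splicing factor gene, had 59.0, 63.8, 0.19 and 37.1 in mutants and 51.2 to 75.1 in controls.

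Genes of basic cell machinery had a constitutive region more often than all genes, and genes of other tissues seldom did. Of 21887 protein-coding genes, 7259 (33.2%) had a constitutive region within 1 kb of an end, and each list below is set against that share. A further 808 genes had a matched summit of every library near an end but no such region, because the summits did not chain into 1 region there or its midpoint lay farther off.

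Protein synthesis was well covered. Cytosolic ribosomal proteins had a region at 66 of 86 genes, with a median percentile of 82.3. Rps29 and Rpl37 were highest, at mean percentiles of 99.7 and 99.4, and Rpl35a was lowest, at 42.5. Translation initiation and elongation factors had 49 of 68, aminoacyl-tRNA synthetases 26 of 35 and mitochondrial ribosomal proteins 47 of 77. Ribosomal protein genes have many processed copies in the genome, so summits at them are uncertain where reads could map to more than 1 copy.

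Gene expression machinery was similar. The subunits of Mediator and TFIID, which carry signals from activators to RNA polymerase II, had 33 of 43, RNA polymerase subunits 19 of 27, and splicing factors 54 of 79. Hnrnpc, an abundant binder of new transcripts, reached a mean percentile of 99.8, and Med19, a Mediator subunit, 98.8. Nucleoporins had 16 of 25, the proteasome 25 of 39, ubiquitin-conjugating enzymes 17 of 31, and chaperonin and DnaJ genes 28 of 51, led by Tcp1 at 99.7.

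Repair and replication had the highest shares of the 41 lists. Fanconi anaemia and double-strand break repair genes had 24 of 28, with Xrcc3 at 99.4, Atm at 98.7 and Brca1 at 97.4. Genes of replication licensing and the replication fork had 32 of 40, among them Gins2 (99.6) and Mcm4 (98.8), parts of the replicative helicase, and Pcna (97.6), the sliding clamp. The anaphase-promoting complex and cyclins had 16 of 25. Genes of centrosomes and of transport in cilia, which neural progenitors hold at the ventricle, had 42 of 59, with Ift27 at 99.3 and Ift57 at 98.6. Vesicle sorting genes had 42 of 62, respiratory complex I 28 of 38, and complexes II to V 27 of 45.

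Lists of chromatin and developmental regulators ran from well above the share of all genes to 0. BAF and Polycomb genes had 17 of 34, among them Ezh2 (96.8), the methyltransferase of Polycomb. Notch receptors, ligands and core effectors had 12 of 31. Numb, an inhibitor of Notch, stood at 99.6, Adam10, a protease that cuts the receptor, at 96.1, the coactivator Maml1 at 93.6, the ligand Dll1 at 46.1, and the targets Hey1 and Hes5 at 78.2 and 62.4. The receptors had no such region, with end summits in 15 libraries for Notch1 and 19 for Notch2. Neurogenic bHLH and Hes genes had 12 of 35, among them Id4 (93.8), Hes6 (91.0) and Neurod1 (58.8). SOX and forkhead genes had 18 of 63, among them Sox11 (86.5), Sox4 (85.9) and Sox9 (81.0). Foxc1 itself had an end summit in 5 libraries and no constitutive region. C2H2 zinc finger genes named Zfp had 193 of 394. Hox genes, which pattern the body axis behind the forebrain, had 0 of 39. Retinoic acid receptors, enzymes and carriers had 1 of 23, Aldh1a3, which makes retinoic acid, at a mean percentile of 40.9.

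Lists of other tissues had few or none. The shares were 0 of 53 keratins, 0 of 71 defensins, 0 of 1106 olfactory receptors, 1 of 353 vomeronasal receptors (Vmn1r4), 2 of 44 collagens and 4 of 68 interleukin and chemokine genes. Some lists of neuronal genes were also sparse, with 7 of 42 glutamate and GABA receptor genes and 5 of 46 voltage-gated ion channels. Clustered protocadherins had 3 of 57, while neuron markers, given below, had 4 of 8.

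Markers of the labelled cells were covered about as often as all genes. Neural progenitor markers had 4 of 12 (Sox9, Emx2, Hes5 and Slc1a3), and a further 4 (Sox1, Sox2, Fabp7 and Vim) had an end summit of every library outside such a region. Prom1 itself had an end summit in 13 libraries. Neuron markers had 4 of 8 (Syt1, Tubb3, Map2 and Neurod6). Endothelial, microglia and mural markers had 1 of 8 (Kdr at 30.8), 1 of 7 (Irf8 at 46.3) and 1 of 5 (Tbx18 at 68.3), and meningeal fibroblast and erythroid markers 0 of 8 and 0 of 7. No end summit in any library was found for 5 of 8 endothelial markers, Cldn5 and Cdh5 among them. The same held for 5 of 7 microglia markers, with Cx3cr1 and Csf1r, and 6 of 7 erythroid markers, with the globin genes. It also held for 1 of 5 mural, 3 of 8 meningeal fibroblast, 1 of 8 neuron and 0 of 12 neural progenitor markers.

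**Figure D3:**
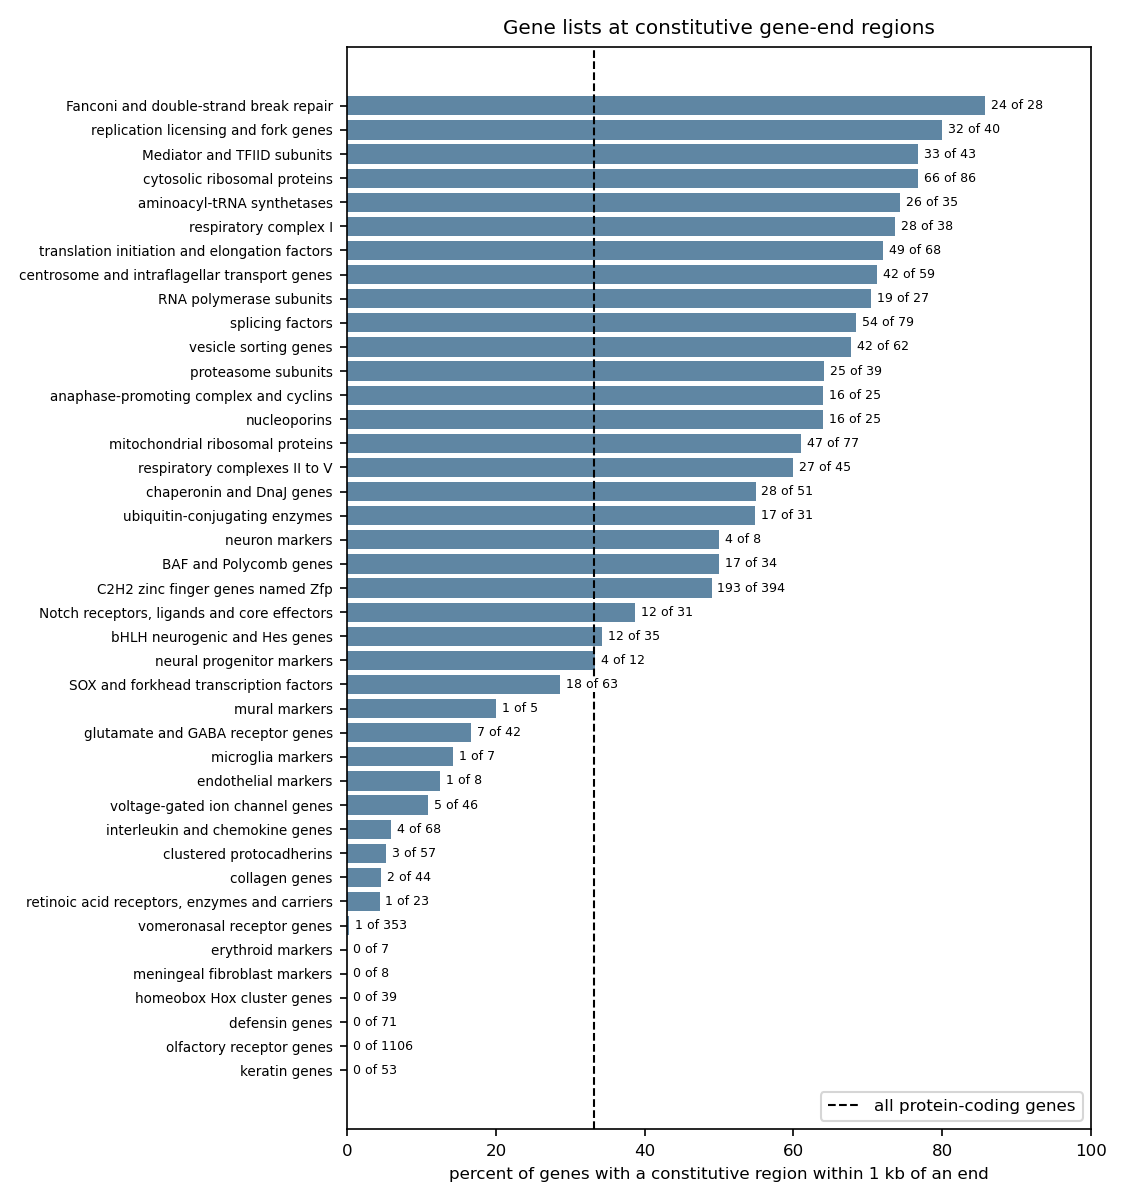
Percent of the genes of 41 lists with a constitutive region within 1 kb of an end, with the counts beside each bar. The dashed line is the share of all protein-coding genes, 33.2%, and repair and replication lists lie farthest above it, at 24 of 28 and 32 of 40 genes.

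By chromosome, 28.3% (chromosome 7) to 40.3% (chromosome 8) of autosomal genes had a constitutive region, against 21.2% on X and 0 of 256 genes on Y. The rule needs a summit of every library, so any library from a female embryo would leave no region on Y. The sex of the embryos was not used here. Chromosome 7 holds 415 olfactory and vomeronasal receptor genes, and without that family its share was 35.6%. Without it, the share on X was 21.4%. Pgk1, a glycolytic gene on X, had a region with a mean percentile of 94.8.

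Promoters with a constitutive region were rich in CpG. RefSeq promoter windows were at hand for 5990 of 7084 genes with a region outside chromosome 18 (84.6%) and for 17492 of all 21376 genes there (81.8%). The 5794 windows with a region within 1 kb of the start had a median GC content of 62% and an observed-to-expected CpG ratio of 0.799, against 52.3% and 0.335 in the 11698 windows with none. A ratio of 0.6 or more, a common mark of CpG islands, was found in 82.2% and 31.7%.

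Motif letters were searched on both strands, a window could hold several, and letters of different motifs may share bases. GGGCGG or its reverse CCGCCC was in 70.3% of windows with a region, 34.4% of windows without one and 46.3% of all windows. CCGGAAG or CTTCCGG was in 21.8%, 7.01% and 11.9%. The palindrome CGCATGCG was in 5.01%, 1.33% and 2.55%, AAGATGGCG or CGCCATCTT in 3.78%, 0.992% and 1.92%, and the palindrome TGACGTCA in 3.95%, 1.52% and 2.33%. The E-box CACGTG was in 10.5%, 6.63% and 7.91%. All of these letters contain CG, and windows with a region held a median of 22 CpG sites against 6 in windows without one. The part of base composition in these shares was not tested.

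Letters without CG went either way. CCAAT or ATTGG was in 45.1% of windows with a region, 36.3% without and 39.2% of all. The TATA box, TATAAA or TTTATA, was in 5.94%, 17.0% and 13.3%. CATTGT or ACAATG, the core bound by SOX factors, was in 6.04%, 13.8% and 11.2%. TGGGAA or TTCCCA, the core of the Notch effector RBPJ, was in 23.04%, 25.2% and 24.5%, and CAGCTG, a bHLH E-box, in 13.7%, 15.8% and 15.1%.

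CCAAT went with rank. The comparisons by rank, number and distance were chosen after these shares were seen. CCAAT was in 63.5% of the 1449 windows with the highest mean percentile and in 29.8% of the 1449 with the lowest, while median GC content was 63% and 60.7%. With each of the 19 libraries ranked alone, the highest set was above the lowest in all 19, at 55.8% to 66.0% against 29.1% to 38.3%. For GGGCGG the highest and lowest sets stood at 77.4% and 63.8%, for CCGGAAG at 22.2% and 19.5%, for CGCATGCG at 3.59% and 4.97%, and for TATAAA at 4.42% and 7.73%. With 0, 1, 2 and 3 or more CCAAT matches, the median percentile was 77.4, 83.0, 89.4 and 94.8, and the share of genes with a region at the start was 29.9%, 31.9%, 44.5% and 62.3%.

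CCAAT also lay where the summits were. Of the 5073 start regions, 4207 (82.9%) had their median summit in a promoter window, and over all regions 4292 did. CCAAT matches were densest within 20 bp of the summit, at 5.17 per kb of sequence, against 4.51 per kb at 20 to 40 bp and 2.28 per kb at 80 to 120 bp. NRF1 letters were sparse at the summit and densest beside it, with 0.0415 per kb within 20 bp (7 matches), 0.435 at 20 to 40 bp (70 matches) and 0.201 at 80 to 120 bp (48 matches). The CRE had 0.113 (19 matches), 0.447 (72 matches) and 0.113 (27 matches). GGGCGG dipped at the summit too, with 5.70, 8.95 and 5.75 per kb, and CCGGAAG did not, with 1.52, 1.49 and 0.839. In the 797 regions with CCAAT within 20 bp of the summit, the summit position ranged over a median of 78 bp across libraries, against 102 bp in the other windows. This was not matched for rank. Windows with any CCAAT match had a median percentile of 87.4, against 77.4 with none. The position range of gene-end regions was 125 bp at percentiles of 50 to 70 and 91 bp at 80 to 90. The transposase has sequence preferences of its own, which were not tested here.

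**Figure D4:**
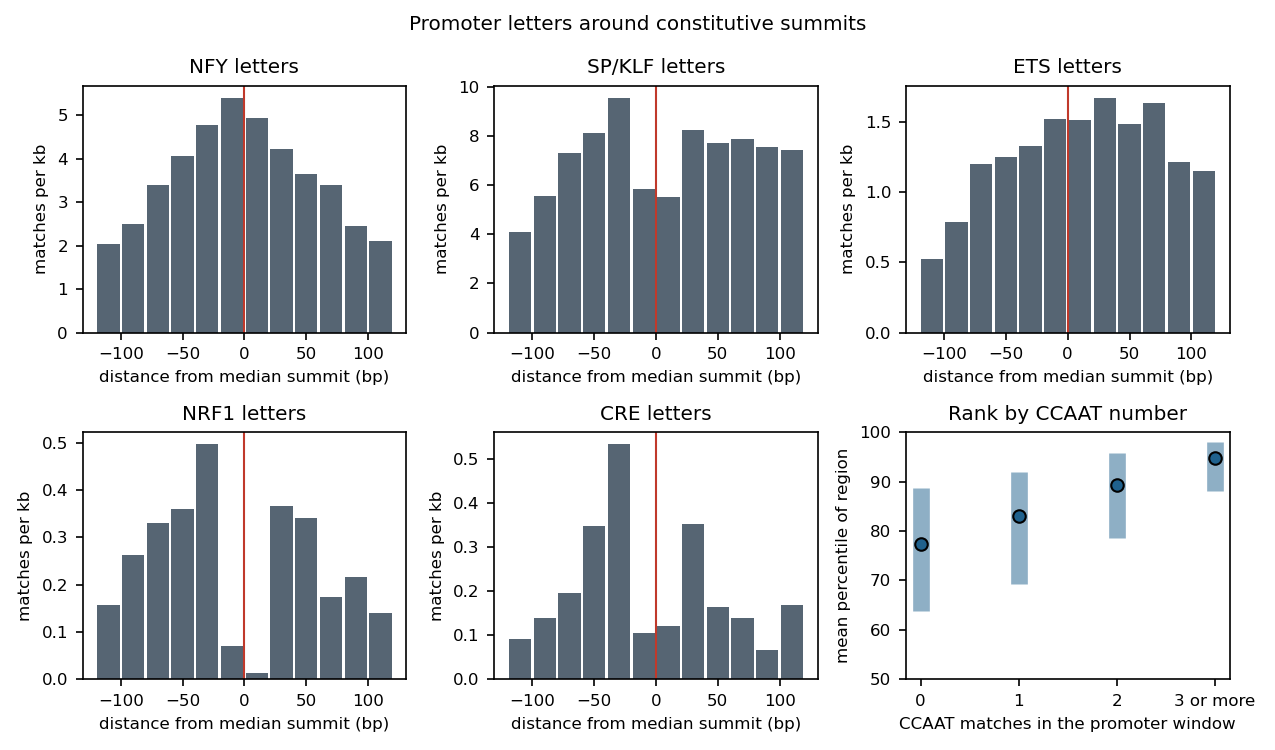
Matches per kb of promoter sequence by distance from the median summit in bp, in bins of 20 bp on the strand of the gene, for 5 motifs in 4292 windows, and, at lower right, the median (circle) and quartiles (bar) of mean percentile by number of CCAAT matches. CCAAT peaks at the summit, NRF1, CRE and GC-box letters dip there, and the median percentile is 77.4 with no CCAAT match and 94.8 with 3 or more.

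Differences between groups were tested on normal scores with limma over all 13035 regions with every library, and p-values were adjusted by Benjamini and Hochberg over all of them. No gene-end region passed an adjusted p of 0.05 in any of the 5 comparisons, and neither did any other region (0% called in each). On simulated scores for mutants against controls, a shift of 1 normal score was found in 148 of 200 regions with 12 false calls, and a shift of 0.5 in 1 of 200. For that comparison, differences of the smaller size were mostly not detectable with this spread, and the others were not simulated. The simulation drew libraries independently, with 1 spread per region for all of them. The libraries here differed in likeness, so the simulated recovery may not carry over. A difference of 1.11 in the data, at Sbspon, was not called. A region lost from the matched set in some library was not among those tested. Regions named below for a comparison were picked by their p, so groups without overlap in them add no support. How many of all regions had groups without overlap was not counted.

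The first comparison, mutants against controls, is about the Foxc1 mutation off the diet. The median difference in normal score was -0.069 over gene-end regions and -0.045 over all regions. At an unadjusted limma p under 0.05 stood 1043 gene-end regions (16.5%), 286 higher and 757 lower in mutants, against 13% of all regions. The lowest adjusted p was 0.338. This count rested on single libraries, with 371 without mutant 3, 428 without mutant 4, 665 without control 1, 1648 without mutant 1 and 1758 without mutant 2. Over all 13035 regions these counts were 633, 736, 1123, 2823 and 3011, in that order. Without mutants 3 and 4 together, 35 gene-end regions (119 of all 13035) had such a p and the lowest adjusted p was 1.00. With both left out, the median difference was 0.026 over gene-end regions and -0.036 over the other regions. Without mutant 2, 295 (4.67%) passed the adjusted threshold, 73 higher and 222 lower, against 3.38% of all regions. The median difference was then -0.076 over gene-end regions and -0.045 over the other regions.

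The lowest p-values among gene-end regions lay at genes of varied roles. Sbspon encodes a secreted protein with somatomedin B and thrombospondin domains. Its percentiles were 55.2, 45.8, 68.2 and 79.1 in mutants and 6.34, 25.2, 25.3 and 39.7 in controls. The groups did not overlap, and control 1 was lowest. The difference was 1.11 ± 0.27 (SE) in normal score, with a limma adjusted p of 0.338. Noa1, a GTPase of mitochondrial ribosome assembly, had 86.4, 81.1, 58.6 and 77.1 in mutants and 91.9, 93.9, 89.8 and 89.2 in controls, without overlap and with mutant 3 lowest. Its difference was -0.63 ± 0.15 (SE), adjusted p = 0.338 by limma. Cdk5rap3, part of the enzyme that attaches the ubiquitin-like protein UFM1, averaged 95.1 ± 2.70 over 4 mutants and 98.8 ± 0.687 over 4 controls (± SD). Crot, a peroxisomal acyltransferase, averaged 98.1 ± 1.70 and 94.2 ± 1.53, Mtfr1, a regulator of mitochondrial fission, 97.53 ± 1.88 and 93.5 ± 1.11, and Ceacam2, an adhesion gene with its region at the 3′ end, 53.2 ± 18.2 and 79.7 ± 6.08, in mutants and controls. Mutants 3 and 4 lay farthest from the controls in Sbspon, Crot, Mtfr1, Noa1 and Cdk5rap3. Without both, the difference was 0.26 in Crot, against 0.63 with them, and 0.25 in Mtfr1, against 0.53. It was -0.37 in Noa1, against -0.63, and -0.41 in Cdk5rap3, against -0.61. In Sbspon it was 0.79, against 1.11, and in Ceacam2 -0.52, against -0.75. Each of these 6 passed the adjusted threshold in 1 of 27 alternatives.

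Mutants on the diet against mutants asks what retinoic acid in the diet does in the mutant, and held the lowest p-values. Of the gene-end regions, 1184 (18.7%) had an unadjusted limma p under 0.05, 564 higher and 620 lower on the diet, against 17.3% of all regions. The lowest adjusted p was 0.0842. The call depended on single libraries and on the model. With all libraries kept, 86 gene-end regions (1.36%, against 1.39% of all regions) passed with the number of summits as covariate. With a replicate block 267 did (4.23%, against 4.74%). Without mutant 2, 298 gene-end regions passed (154 higher and 144 lower), without mutant 6 on the diet 271 (99 and 172), and without mutant 1, the library with the conflicting genotype label, 199 (120 and 79). Without control 3, control 5 on the diet or mutant 5 on the diet, 1 passed (0.0158%, against 0.00767% of all regions). Without any other single library 0 passed. In the 3 cases with many calls, 3.87%, 4.83% and 2.5% of all regions passed, against 4.72%, 4.29% and 3.15% of gene-end regions. Without mutant 3 alone 701 had an unadjusted p under 0.05 (1648 of all 13035 regions), and without mutant 4 alone 752 (1581 of all). Without mutants 3 and 4 together, 0 gene-end regions passed, against 0.0614% of all regions. An unadjusted p under 0.05 then stood at 492 (1415 of all). In each of these fits the share of gene-end regions was below that of all regions, the reverse of the fit with every library.

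Cwc22, a splicing factor that also loads the exon junction complex, had the lowest p. Its percentiles ran from 28.5 to 75.8 with a median of 47.2 in mutants on the diet and were 91.9, 92.7, 95.4 and 92.0 in mutants. These groups did not overlap. It stood at 50.7, 54.4, 38.7, 55.0 and 85.7 in controls on the diet and 85.9, 60.4, 93.8 and 52.8 in controls, which overlapped. The difference in mutants was -1.51 ± 0.27 (SE) with an adjusted p of 0.0842 by limma, and it passed the threshold in 9 of 27 alternatives, with differences from -1.75 to -1.40. Cwc22 has near-identical copies in the mouse genome whose number varies between strains, so its value is uncertain.

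Ssr3, a subunit of the complex that helps proteins into the endoplasmic reticulum, had 91.2 to 94.8 with a median of 92.1 in mutants on the diet and 96.5, 96.5, 98.8 and 99.4 in mutants. The groups did not overlap, and mutants 3 and 4 lay farthest out. The difference was -0.65 ± 0.12 (SE), adjusted p = 0.0842 by limma, and it was -0.37 without those mutants. Raly, an RNA-binding protein of the hnRNP family, had 97.4 to 99.6 with a median of 98.1 in mutants on the diet and 93.1, 93.9, 94.1 and 93.5 in mutants. Its difference was 0.63 ± 0.13 (SE), adjusted p = 0.0863 by limma. In Raly no mutant stood apart, and controls on the diet, at 97.8, 98.1, 98.9, 98.8 and 97.45, also lay above controls, at 96.2, 92.4, 96.8 and 93.5.

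Mutants 3 and 4 also lay farthest out in the next 3 regions. Fance, a subunit of the Fanconi core complex, had 98.1 to 99.1 with a median of 98.7 in mutants on the diet and 96.8, 97.2, 87.4 and 75.1 in mutants. Nr1h2, the nuclear receptor LXR beta, had 75.6 to 93.1 with a median of 83.4 on the diet. In mutants it had 67.9, 66.6, 11.0 and 48.7. H4c3, a histone H4 gene, had 66.9 to 84.7 with a median of 79.8 on the diet and 88.6, 88.6, 99.2 and 98.3 in mutants. The groups did not overlap in any of the 3, and the limma adjusted p was 0.0863 in each. The differences were 0.84 in Fance, 1.09 in Nr1h2 and -0.93 in H4c3, and without mutants 3 and 4 they were 0.36, 0.55 and -0.40. Histone H4 genes share near-identical coding sequence, so H4c3 and H4c4 are uncertain where reads could map to several.

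**Figure D5:**
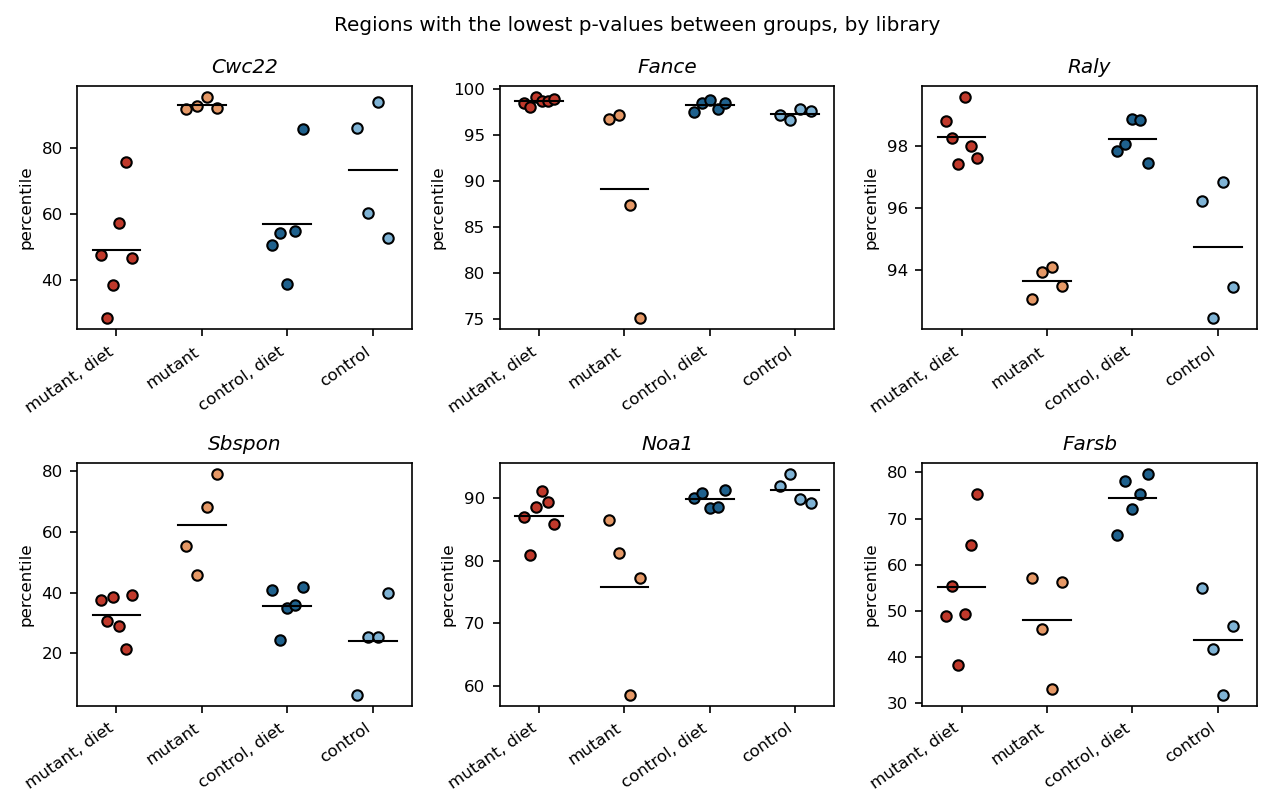
Percentile in each library (points) and group mean (line) of 6 regions with low unadjusted p-values in a comparison between groups, each panel on its own axis that does not start at 0. In Cwc22, mutants lie between 91.9 and 95.4 and mutants on the diet between 28.5 and 75.8.

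Controls on the diet against controls asks what the diet does without the mutation. Of the gene-end regions, 245 (3.88%) had an unadjusted limma p under 0.05, against 5.18% of all regions, with 111 lower and the rest higher on the diet and a lowest adjusted p of 0.938. With array weights, which give less weight to libraries with more scatter, 385 gene-end regions passed the adjusted threshold (6.09%, against 9.28% of all regions). Without mutants 3 and 4, which enter only through the shared spread, 478 had an unadjusted p under 0.05 (1125 of all 13035 regions). Farsb, a subunit of phenylalanyl-tRNA synthetase, had 66.5, 78.2, 72.0, 75.3 and 79.7 in controls on the diet and 54.9, 41.9, 31.9 and 46.7 in controls. The groups did not overlap, and the difference was 0.82 ± 0.20 (SE), adjusted p = 0.938 by limma. Zbed5, a gene derived from a transposon, had 82.1, 81.0, 83.5, 80.7 and 79.9 in controls on the diet and 90.4, 89.9, 90.6 and 92.7 in controls, also without overlap. Dennd3, an activator of a Rab GTPase, averaged 69.1 ± 5.44 over 5 controls on the diet and 39.7 ± 14.9 over 4 controls (± SD). Rab5b, a GTPase of early endosomes, averaged 99.62 ± 0.13 and 99.90 ± 0.06, and Pank3, an enzyme of coenzyme A synthesis, 99.04 ± 0.33 and 99.73 ± 0.18.

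Mutants on the diet against controls on the diet had few low p-values with all libraries weighted alike. Of the gene-end regions, 93 (1.47%) had an unadjusted limma p under 0.05, against 1.65% of all regions, with 8 higher and 85 lower in mutants and a lowest adjusted p of 1.00. The median difference was -0.053 over gene-end regions and -0.038 over all regions. The count at an unadjusted p under 0.05 was 302 without mutant 6 on the diet and 235 without mutants 3 and 4. It was 747 without those 2 and mutants 4 and 6 on the diet, and 653 with array weights. Over all 13035 regions it was 725, 475, 1718 and 1280, in that order. Pgk1 had 96.2 to 99.6 with a median of 98.3 in mutants on the diet and 93.2, 90.1, 92.4, 93.7 and 91.8 in controls on the diet. The groups did not overlap, and the difference was 0.71 ± 0.19 (SE), adjusted p = 1.00 by limma. Naa15, the anchor of the main N-terminal acetyltransferase on ribosomes, had 34.3 to 58.1 with a median of 43.3 in mutants on the diet. In controls on the diet it had 63.9, 67.7, 63.1, 62.8 and 71.7. Tmem14a, a small membrane protein, averaged 42.7 ± 12.2 and 19.3 ± 13.0, Nucb2, the precursor of nesfatin, 97.98 ± 0.764 and 96.3 ± 0.733, Cnot3, part of the main deadenylase, 99.54 ± 0.27 and 99.89 ± 0.04, and Thoc3, part of an RNA export complex, 44.3 ± 19.1 and 66.9 ± 3.81, over 6 mutants on the diet and 5 controls on the diet (± SD).

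The interaction asks whether the diet acts differently in mutants and controls. At an unadjusted limma p under 0.05 stood 350 gene-end regions (5.54%), against 4.58% of all regions, with 165 higher and 185 lower in the difference of the diet effects and a lowest adjusted p of 0.866. The count was 829 without mutant 1, 980 without mutant 2, 129 without mutant 3, 150 without mutant 4, 213 without control 1, 218 without control 4 on the diet and 545 without mutant 6 on the diet. Over all 13035 regions it was 1414, 1611, 286, 266, 393, 399 and 947, in that order. Without mutants 3 and 4 together it was 58 in gene-end regions and 130 over all. The lowest p lay at Gm51582, a predicted gene. It had 18.3 to 42.9 with a median of 24.8 in mutants on the diet, 49.7, 34.4, 65.4 and 59.6 in mutants, 60.3, 28.3, 51.9, 38.5 and 52.9 in controls on the diet, and 27.9, 19.7, 19.3 and 24.6 in controls. Mutants on the diet lay mostly below mutants, while controls on the diet lay above controls in each library. The interaction was -1.35 ± 0.33 (SE), adjusted p = 0.866 by limma. For Med11, a Mediator subunit, it was 0.61 ± 0.20, for Sec23ip, a partner of the COPII coat, 0.79 ± 0.26, and for Vrk2, a kinase related to one of vaccinia virus, -0.86 ± 0.24 (SE each). In Med11 and Sec23ip mutants 3 and 4 were the lowest libraries, at 76.9 and 82.2 and at 43.4 and 49.2. Without both, the interaction was 0.28 in Med11 and 0.31 in Sec23ip.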

How the data were processed

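The deposited files are MACS2 summit lists, 1 base per summit, and the fifth column is a -log10 q value as the authors deposited it. The lowest value per library was 1.302 to 1.32, next to 1.301, the value of a q of 0.05. BWA, MACS2, Signac and DiffBind and the builds mm10 and GRCm38 are named per the submitters' processing notes, with versions not given in the sources used here.

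Summits of chromosomes 1 to 19, X and Y were ranked per library within the matched list, chained and set against protein-coding gene ends in RefSeq (GRCm38.p6). Where a region held several summits of a library, the best was used. Percentiles were turned into normal scores and compared with limma 3.58.1 in R 4.3.3, in 1 model of 4 groups without batch, which the labels do not give. Benjamini-Hochberg adjustment ran over 13035 regions. The procedure was tested on simulated data. Python 3.11.15, numpy 2.4.6, pandas 2.3.3, scipy 1.17.1 and matplotlib 3.10.9 did the rest. Ranks set libraries on 1 scale, and how far they remove differences in depth was not tested.

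Members, lists and tests were chosen with earlier results of these data known. Genes named were drawn from those with the 10 highest mean percentiles and the 10 smallest and 10 largest SDs. Further sources were the 5 smallest and 5 largest position ranges, and the 3 highest and 3 lowest per comparison by limma p. Others came from the limits of the rule, the lists, and the best-ranked gene per motif. Not all genes of these kinds were named. The 3′ end genes were chosen after their values were seen.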

Additional observations from a re-analysis of the deposited data

Results flagged for a closer look

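Of 140 groups of libraries checked, 4 held a library far from the rest, and chance gives such a gap in about 1 of 20 groups. Mutant 4 had 49804 summits, against 108298 to 115007 in the other mutants. Control 2 had a Spearman coefficient of 0.905 with the mean of the other libraries over the gene-end regions, against 0.949 to 0.958 in the other controls. Control 4 was the weakest library in 1.41% of the regions, against 3.32% to 3.67% in the other controls. At Gm51582, mutant 6 on the diet had a percentile of 42.9, against 18.3 to 27.1 in the other mutants on the diet.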

How the results depend on the processing

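The number of gene-end regions, the members, stayed within 1.5 times 6317 in all alternatives but 1: a matched list 2 times shorter left 4121. The mean over libraries of the median percentile, 81.9, was 78.6 with that shorter list, 91.0 with all deposited summits, and 79.5 without mutants 3 and 4 and mutants 4 and 6 on the diet, an alternative added after seeing the data. Leaving out 1 library gave 6313 to 6544 members and medians of 81.1 to 81.9.

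Calls among gene-end regions, 0 in each comparison, moved as follows. For mutants on against off the diet there were 86 with the number of summits as covariate (1.36%, against 1.39% of all regions), 267 with a replicate block (4.23%, 4.74%), 2 with array weights (0.0317%, 0.253%), 160 without the 4 libraries together (2.53%, 6.63%), and 0 to 298 without 1 library. For controls on against off the diet there were 385 with array weights (6.09%, 9.28%), 4 without the 4 libraries (0.0633%, 0.407%) and 0 without 1 library. For mutants against controls there were 0 to 295 without 1 library (4.67%, 3.38% for the 295). For mutants against controls on the diet there was 1 without the 4 libraries (0.0158%, 0.00767%). The interaction had 0 calls in every alternative run. The cause of these shifts was not tested. Deviations from the group means correlated at r of -0.29 to 0.40 over 25 same-numbered pairs of libraries from different groups (median 0.051). Over 109 differently numbered pairs r was -0.43 to 0.63 (median 0.0004). These overlapping ranges cannot tell whether the numbers pair libraries. Over 30 named differences and their alternatives, 759 of 810 values kept their side of the threshold, 51 passed it and 0 reversed. Read depth is unknown, and its part in these values was not tested.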

Other observations

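Genes with a pair of constitutive regions included genes of cilia, signalling and the cytoskeleton. Foxj1, the master regulator of motile cilia, had regions with mean percentiles of 81.2 and 48.9. Actn1, an actin crosslinker, had 93.5 at its start and 42.2 at its 3′ end, while Csf1, a growth factor gene of microglia, had 52.1 at its start and 68.5 at its 3′ end. Elmo2, a partner of Rac activators, had 91.1 and 86.8, and Mov10, an RNA helicase gene, 30.6 and 69.5. Among 3′ end regions, Bcan, a brain proteoglycan gene, had a mean percentile of 84.5 at a site 13209.5 bp from the nearest listed start, its own. These genes were chosen after their values were seen.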
